A study of Danio rerio with 12 samples.

Results

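The 3 zebrafish embryo libraries with the lowest levels of skeletal muscle and lens crystallin transcripts were set against the other 9 libraries of the series, over all 13680 listed genes. The 3 were fed replicate 4, fed replicate 5 and starved replicate 4, and they are called the low-score libraries here. They were chosen by measured values, namely the mean log2(value + 1) of 100 skeletal muscle genes and 25 lens crystallin genes, so their difference from the rest in those genes, and in every other gene measured in the same libraries, is a description and was not tested. The series asked whether feeding or starving male zebrafish before fertilisation changes gene expression in their offspring. Eggs of fed wild-type females were fertilised in vitro with sperm from males that had been fed or starved, and the embryos, of the AB strain, were all frozen at 24 hours after fertilisation. Offspring of fed fathers gave 2 of the low-score libraries and 4 of the other 9, and offspring of starved fathers gave 1 of the low-score libraries and 5 of the other 9. Each library was made from 1 to 3 whole embryos of a clutch, taken out of the egg envelope by hand. Whether every library had a father of its own is not stated in the labels, so some libraries may share a father and not be independent. How much of the spread between libraries is technical was not tested. The labels give the same age for all 12 libraries and no morphological stage, so whether the embryos of the low-score libraries were less advanced is not recorded.

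At this age the zebrafish embryo changes quickly. Somites bud from the presomitic mesoderm of the tailbud, and their cells switch from myogenic transcription factors to the contractile proteins of slow and fast muscle fibres. Lens fibre cells fill with crystallins, primary neurons extend axons and assemble synapses, melanin appears in the retina and the skin, and hatching gland cells load granules of proteases over the front of the yolk. The yolk syncytial layer digests yolk with lysosomal proteases and exports its lipid as lipoproteins, and it shrinks relative to the body as the embryo grows. Whole-embryo RNA mixes all of these tissues, so fewer cells of a type and less RNA per cell cannot be told apart.

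Transcripts were measured by 3' tag sequencing, in which the number of reads does not grow with the length of the transcript. The deposited values are reads scaled by 1 factor per library, here called normalized reads, and 1 read was worth 0.301 to 0.374 normalized reads in the low-score libraries and 0.234 to 0.343 in the other 9. The listed genes held 3207508 to 3723372 reads in the low-score libraries and 2950740 to 3934765 in the other 9, so depth overlapped. The large ribosomal RNA of the mitochondrion took 44.8%, 48.7% and 39.3% of the reads in the low-score libraries, against 27.0% to 46.7% (median 38.8%) in the other 9, and its part in the differences was not tested. A scaling that leaves mitochondrial ribosomal RNA out moved the median of all genes by under 0.1 on the log2 scale. The libraries carry description codes shared by a fed and a starved library, and both libraries of code 1219 (replicate 4 of each group) are low-score libraries. Only code 1242 had libraries on both sides, fed replicate 5 against fed replicate 6 and starved replicates 5 and 6, so what sets code 1219 apart and what sets low muscle and lens apart cannot be told apart for the other 2.

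The score, the mean over all 125 muscle and lens genes, stood at 4.01 for fed replicate 4, at 4.44 for fed replicate 5 and at 4.48 for starved replicate 4. The nearest libraries outside were starved replicate 5 and fed replicate 6, both at 5.19, and the highest score was 5.82 in fed replicate 3. The gap between 4.48 and 5.19 was wider than the whole spread of the 9 other libraries, which was 0.636. Muscle and lens gave the same 3 libraries separately. The muscle mean was 4.77, 5.12 and 5.28 in fed replicate 4, fed replicate 5 and starved replicate 4, with the next at 5.77 in fed replicate 6. The lens mean was 0.98, 1.72 and 1.29 in the same order, with the next at 2.60 in starved replicate 5. From here on, 3 values given for the low-score libraries are always in the order fed replicate 4, fed replicate 5, starved replicate 4.

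**Figure D1:**
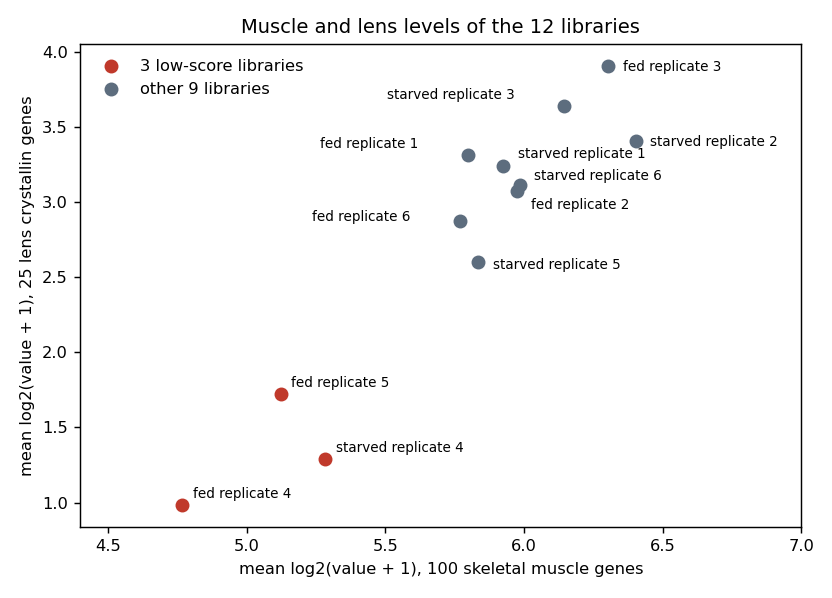
Mean log2(value + 1) of 100 skeletal muscle genes (horizontal axis) and of 25 lens crystallin genes (vertical axis), with 1 point per library, red for the 3 low-score libraries and grey for the other 9. The low-score libraries lie at 4.77 to 5.28 for muscle and 0.98 to 1.72 for lens, apart from the others, whose lowest values are 5.77 and 2.60.

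For each gene, a fitted log2 difference (low-score minus other libraries, with the father's diet as a covariate, ± SE) describes its size, and a gene counts as non-overlapping when its values in all 3 low-score libraries lie below, or all above, those of all 9 others. Over all 13680 genes the median difference was -0.0047. Non-overlapping genes numbered 414 below (3.03%) and 412 above (3.01%), together 6.04% (518 below and 342 above with the scaling that leaves out mitochondrial ribosomal RNA), and outside the 125 score genes 353 lay below (2.6% of 13555). With a difference of at least 2-fold as well, 221 genes lay below (1.62%) and 211 above (1.54%). These shares are the background for every list that follows. By list, the low-score libraries had less transcript of muscle, lens, synapse, neuron and pigment genes and more of yolk, lysosome, hatching gland, endoderm, epidermis and tailbud genes. Pigment genes were lower only in part, with 3 of 24 members non-overlapping below and 2 above. Hatching gland and epidermis list scores overlapped through starved replicate 4. Cytosolic ribosomal protein and nuclear oxidative phosphorylation genes also had positive medians (0.32 and 0.33, with 78 of 79 and 59 of 70 members positive), with overlapping list scores. Lists for DNA replication, mitosis, notochord, the Fgf and retinoic acid pathways and the mitochondrial genome had medians within 0.1 of 0.

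**Figure D2:**
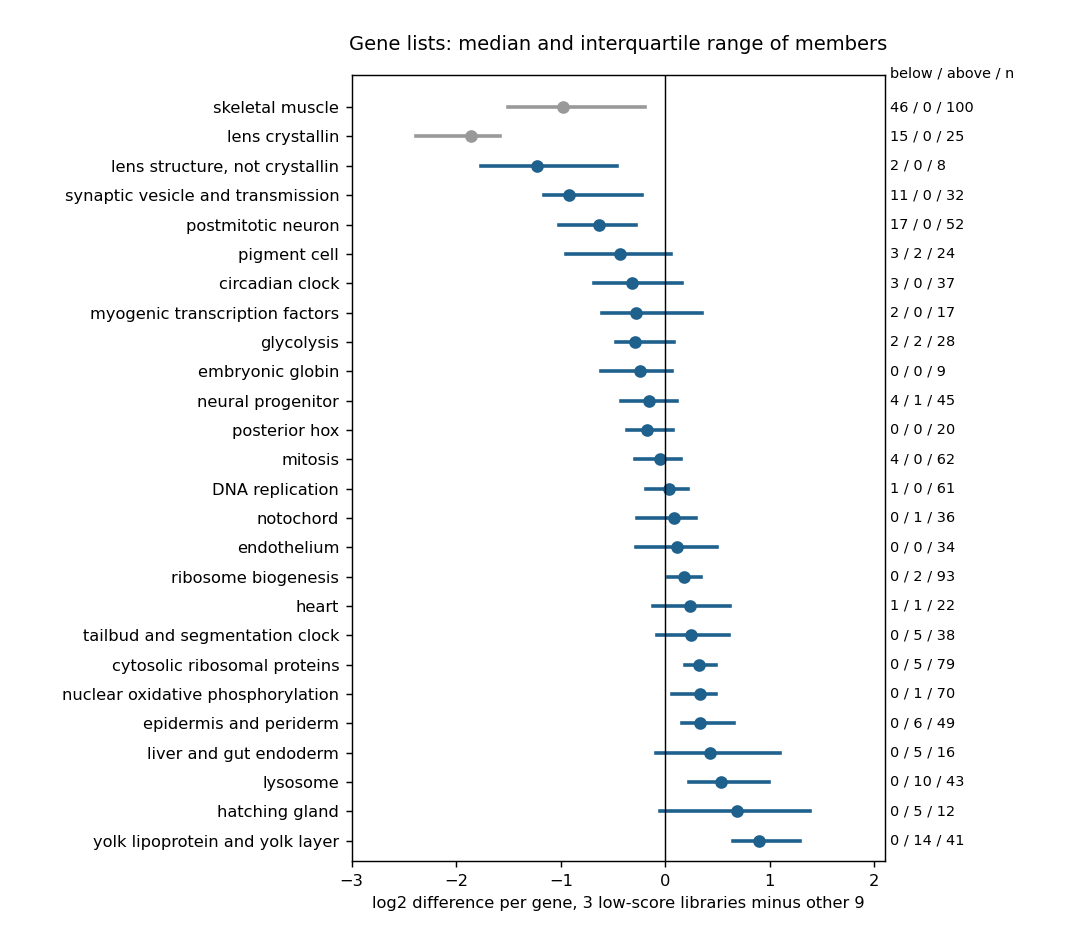
Log2 difference of the low-score libraries minus the other 9 for the genes of 26 lists, with the median as a point and the interquartile range of the members as a bar, grey for the 2 lists that chose the libraries. Numbers at the right give the members non-overlapping below, non-overlapping above and measured; the yolk list has 14 of 41 above and the synaptic list 11 of 32 below.

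The muscle genes that chose the libraries were not lowered evenly. Of the 100 genes of the list, 84 had a negative and 16 a positive fitted difference, 46 were non-overlapping below and 0 above, with a median of -0.98. tnnt3b, a fast troponin T, had 37.6, 91.3 and 59.1 normalized reads in the low-score libraries, against 188 to 698 (median 308) in the other 9, a log2 difference of -2.50 ± 0.29. The highest low-score value, in fed replicate 5, was below the lowest of the others, in fed replicate 6. The fast myosin heavy chain gene myhz1.2 had 10.8, 27.7 and 49.7, against 101.26 to 274 (median 161) in the other 9 (-2.53 ± 0.29). xirp2b, which encodes an actin-binding protein of muscle attachment sites, had 0.3, 10.1 and 7.86, against 11.7 to 95.1 (median 39.5) (-3.04 ± 0.50), and fed replicate 4 had a single read of it. Its difference turned to 0.56 when the replicate number was a block, a fit in which only the libraries numbered 5 carry the contrast. ttn.2, a titin gene, had 372, 705 and 2065 normalized reads, against 2566 to 4553 (median 3288), so that starved replicate 4 stood just below the others while fed replicate 4 was far below. The slow myosin gene smyhc1 had 386, 340.3 and 823, against 599.8 to 944 (median 758) (-0.55 ± 0.16), where starved replicate 4 was above the median of the other 9. The skeletal actin gene acta1b had 200.3, 217 and 250.3, against 295 to 560.2 (median 335) (-0.68 ± 0.17), and the muscle creatine kinase gene ckma 226, 280.0 and 282, against 280.4 to 828 (median 537) (-1.05 ± 0.21). Reads of near-identical fast myosin genes may have been split between copies.

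The regulators of muscle, which took no part in the choice, had a smaller median difference. Of 17 myogenic transcription factors, 2 were non-overlapping below and 0 above, and the median was -0.28 (-0.16 without fed replicate 1). mef2ca, a factor of muscle differentiation, had 71.7, 65.5 and 77.7 normalized reads in the low-score libraries, against 102 to 155 (median 131) in the other 9 (-0.82 ± 0.17). pax7b, a factor of muscle and neural crest precursors, had 9.64, 6.36 and 14.2, against 14.8 to 28.9 (median 22.8) (-1.001 ± 0.27). Its paralogue pax7a overlapped, with 5.72, 10.9 and 16.7 against 15.7 to 27 (median 21.2). myog, the myogenin gene switched on as muscle cells begin to differentiate, went the other way, with 14.8, 8.98 and 12.3 in the low-score libraries against 1.42 to 9.69 (median 3.53) in the other 9 (1.24 ± 0.43). Fed replicate 5 lay inside the range of the others for myog, so it overlapped.

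Lens crystallin genes, which also chose the libraries, had the largest median difference of any list when all 12 libraries were fitted without a block. Their median was smaller in size than the yolk median under the replicate block (-0.72 against 1.38). It was also smaller than the hatching gland median with the description code as a block (-1.03 against 1.29) and within code 1242 (-1.18 against 1.27). All 25 crystallin genes had a negative difference, 15 of 25 were non-overlapping below, and the median was -1.86. crybb1, a beta crystallin gene, had 7.53, 9.73 and 13.2 normalized reads in the low-score libraries, against 39.5 to 129 (median 67.2) in the other 9 (-2.67 ± 0.25). cryba4, another beta crystallin gene, had 5.42, 15 and 2.52, against 22 to 84.2 (median 50.8) (-2.87 ± 0.35). No low-score library came near the lowest of the other 9 for crybb1. Gamma crystallin genes are partly near-identical copies, and crygm2d17 had 0.3, 1.87 and 1.26, against 4.12 to 21.1 (median 12.5). Of 8 other lens genes, outside the score, 2 were non-overlapping below. mipa, a water channel gene of lens fibres, had 0, 3.74 and 3.77, against 8.92 to 25.8 (median 14.4) (-2.49 ± 0.40), with no read in fed replicate 4. The transcription factor gene prox1a did not follow, with 20.5, 14.2 and 29.6 against 7.23 to 17.5 (median 13.4) in the other 9 (0.74 ± 0.31). The list median of -1.23 therefore rests on structural genes at low counts, and among the 3 members with a mean of at least 5 normalized reads it was 0.22.

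Neuronal differentiation genes were lower across the list. Of 52 postmitotic neuron genes, 46 had a negative difference, 17 were non-overlapping below and 0 above, against the background of 2.6%, and the median was -0.64. elavl3, the pan-neuronal RNA-binding protein HuC, had 196, 177 and 224 normalized reads in the low-score libraries, against 318 to 548 (median 402) in the other 9 (-1.09 ± 0.16). All 3 were well below the lowest of the other libraries, fed replicate 5 the furthest. Its relative elavl4 had 104, 65.5 and 95.9, against 142 to 204 (median 181) (-1.01 ± 0.17). onecut1, a transcription factor of neurons, had 51.2, 58.8 and 46.5, against 96 to 149 (median 126) (-1.25 ± 0.16), and the neurofilament gene nefmb 16.9, 7.49 and 9.12, against 17.1 to 43.4 (median 28) (-1.39 ± 0.26). gap43, a growth cone gene, showed a smaller difference, with 28, 28.8 and 35.8 against 38 to 52.8 (median 45.3) (-0.56 ± 0.19). The list score, the mean of the members' log2 values centred on all 12 libraries, was -0.56, -0.56 and -0.30 in the low-score libraries, against -0.01 to 0.29 (median 0.19) in the other 9, without overlap.

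Genes of synaptic transmission were lower as well. Of 32 members, 29 had a negative difference and 11 were non-overlapping below, with a median of -0.92 and none above. slc6a5, the glycine transporter of inhibitory neurons, had 2.41, 5.99 and 5.97 normalized reads in the low-score libraries, against 10.3 to 26.1 (median 15.05) in the other 9 (-1.68 ± 0.32). The complexin gene cplx2l, which acts in vesicle fusion, had 6.33, 7.11 and 16, against 18.5 to 38.3 (median 24.8) (-1.57 ± 0.28). syt2a, a synaptotagmin gene, had 6.93, 10.5 and 9.75, against 19.8 to 41.3 (median 24.9) (-1.45 ± 0.25). snap25a, a fusion protein gene of the presynapse, had 17.8, 12.7 and 30.8, against 31.9 to 53.7 (median 42.2) (-1.03 ± 0.23), with starved replicate 4 just under the lowest other library. The GABA transporter gene slc6a1b overlapped through fed replicate 4, with 9.94, 2.62 and 4.72 against 7.2 to 29.7 (median 19.6). List scores were -0.62, -0.56 and -0.55 in the low-score libraries, against -0.069 to 0.32 (median 0.24).

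Progenitor genes of the nervous system were lower in part. Of 45 members, 31 had a negative and 14 a positive difference. Non-overlapping were 4 below and 1 above, with a median of -0.16 (-0.31 without starved replicate 4). nes, which encodes the intermediate filament nestin, had 96.7, 75.6 and 102 normalized reads in the low-score libraries, against 149.6 to 213 (median 185) in the other 9 (-0.96 ± 0.16). fabp7a, a fatty acid-binding protein gene of radial glia, had 69, 94 and 58.8, against 112 to 199 (median 134) (-0.97 ± 0.19). sox2, a transcription factor of neural progenitors, overlapped, with 74.1, 38.6 and 79.2 against 24.4 to 76.8 (median 54.8) (0.23 ± 0.27), as did the Notch target her4.1 with 22.6, 18.7 and 16.7 against 8.2 to 20.4 (median 11.7). her9, a repressor of neuronal differentiation, lay above, with 46.1, 35.2 and 36.5 in the low-score libraries against 11.2 to 33.3 (median 20.5) (0.88 ± 0.26), a difference that turned to -0.097 with the replicate block. Among 29 eye field and retina genes, 2 were non-overlapping below and the retinal factor pax6a had 44.3, 42.3 and 61.6, against 53.9 to 114 (median 82), so that starved replicate 4 overlapped.

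Pigment genes were lower in part. Of 24 members, 3 were non-overlapping below and 2 above, with a median of -0.43. tyrp1a, a melanin synthesis gene, had 5.72, 7.49 and 9.43 normalized reads in the low-score libraries, against 12 to 38.9 (median 28.7) in the other 9 (-1.52 ± 0.31). tyrp1b had 8.43, 22.1 and 7.23, against 21.9 to 53.4 (median 37.1) (-1.60 ± 0.28), and fed replicate 5 lay just inside the range of the others. gch2, which makes the pterin precursor of yellow pigment, had 44.3, 48.3 and 35.5, against 66.9 to 133 (median 95.7) (-1.21 ± 0.19). paics, a purine synthesis gene counted with the pigment genes because iridescent cells need purines, lay above instead, with 308, 275 and 199.96 against 58.6 to 143 (median 93.1) (1.37 ± 0.20). dct, another melanin gene, had too few reads to compare, with 1.2, 1.12 and 0 against 0 to 2.64 (median 0.89).

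**Figure D3:**
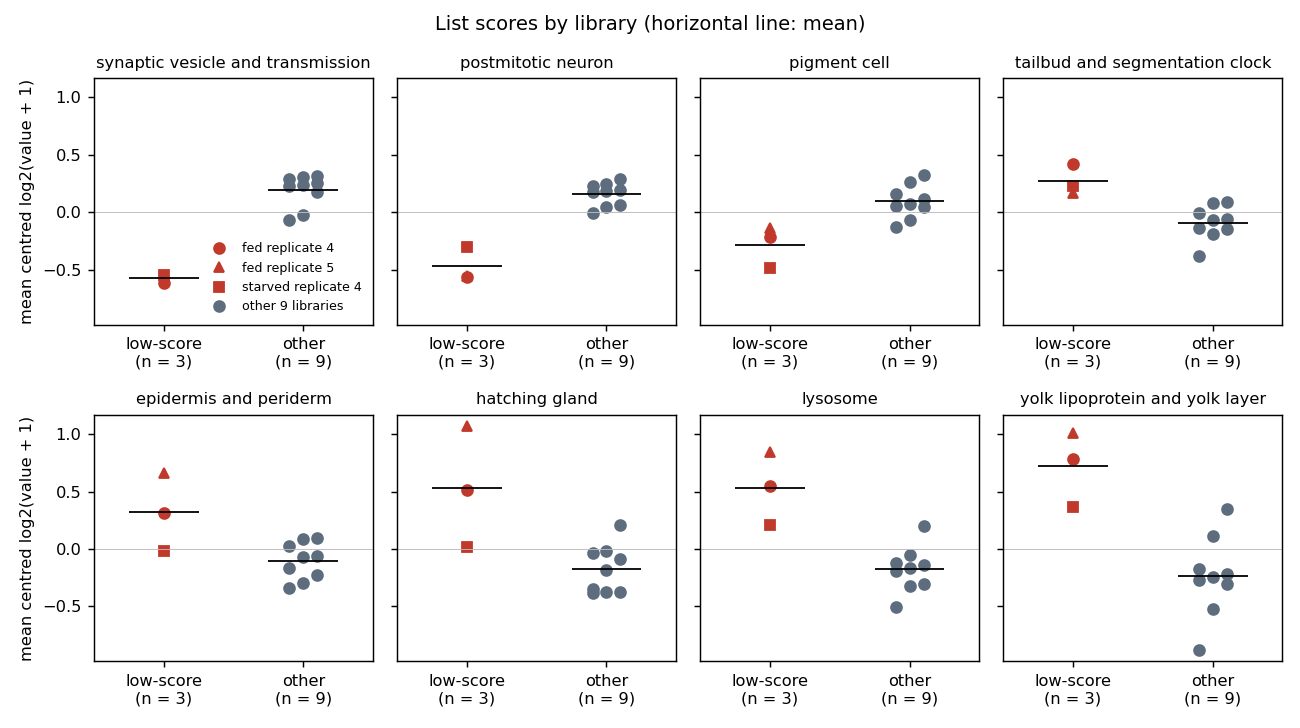
List scores by library for 8 gene lists, as the mean of the members' log2(value + 1) centred on all 12 libraries, low-score libraries at the left of each panel (red; circle fed replicate 4, triangle fed replicate 5, square starved replicate 4) and the other 9 at the right (grey), with the mean as a line. Neuron, synapse and pigment scores of the low-score libraries lie below all 9 others and tailbud, lysosome and yolk scores above; epidermis and hatching gland scores overlap through starved replicate 4.

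Tailbud and segmentation genes had a positive median that did not hold in every fit. Of 38 members, 26 had a positive difference, 5 were non-overlapping above and 0 below, with a median of 0.25, against the background of 3.01% above. msgn1 (mesogenin 1), a transcription factor of the presomitic mesoderm on chromosome 4, had 27.4, 13.1 and 15.7 normalized reads in the low-score libraries, against 0.33 to 7.2 (median 2.56) in the other 9 (2.46 ± 0.47). Starved replicate 5, the library nearest in score, had the highest msgn1 of the 9, but fed replicate 6, with nearly the same score, had only 1.17. vox, a ventral homeobox repressor, had 13.9, 15.3 and 16.7, against 0.96 to 14.5 (median 4.8), an overlap through fed replicate 4. tbx16, a T-box factor of mesoderm, had 13.9, 6.74 and 5.66, against 0.48 to 7.55 (median 2.84) (1.29 ± 0.47). tbxta, the T-box gene of the tailbud and notochord, differed little, with 3.61, 9.73 and 9.12 against 2.41 to 8.69 (median 5.4) (0.37 ± 0.39). The retinoic acid-degrading enzyme gene cyp26a1 had 16.6, 19.1 and 13.5, against 5.7 to 19.6 (median 9.4) (0.69 ± 0.33). The list score was 0.42, 0.17 and 0.23 in the low-score libraries, against -0.39 to 0.089 (median -0.064), and without fed replicate 4 the median difference was 0.089. With the description code as a block it was 0.061, and with the replicate block it turned to -0.0093.

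Yolk layer genes had the largest positive median of the lists when all 12 libraries were fitted without a block. Without starved replicate 4 the hatching gland median was larger (1.26, against 0.96 for yolk), as it was with the description code as a block (1.29 against 1.01), with fed replicate 5 alone (1.44 against 1.05) and within code 1242 (1.27 against 1.24). The list shares 3 genes with the lysosomal list and 3 with the endodermal list described after it. Of 41 members, 38 had a positive difference, 14 were non-overlapping above and 0 below, and the median was 0.90. apoa1a, the main apolipoprotein of high-density lipoprotein, had 2224, 2082 and 1479 normalized reads in the low-score libraries, against 394 to 1387 (median 672) in the other 9 (1.43 ± 0.22). Fed replicate 1, at the upper end of the 9, came close to starved replicate 4. afp4, an apolipoprotein-like gene listed under 2 neighbouring identifiers on chromosome 16, had 2753, 2201 and 1254 at the more abundant one, against 209 to 936 (median 418) (1.95 ± 0.29). serpina1, a secreted protease inhibitor gene, had 123, 99.2 and 97.5, against 20.5 to 55.4 (median 32.3) (1.67 ± 0.24). ambp, which encodes a secreted precursor protein, had 63.6, 41.9 and 39.3, against 4.57 to 25.5 (median 14.7) (1.76 ± 0.38), and the lipid transfer gene mttp, needed to load lipoproteins, 67.8, 85.7 and 62.9, against 9.9 to 47.4 (median 32) (1.203 ± 0.26). apoba, the large apolipoprotein B gene, overlapped with 429.8, 444 and 396 against 154 to 439 (median 285) (0.48 ± 0.23). The retinol carrier gene rbp4 also overlapped, through starved replicate 4, with 196, 265 and 99.7 against 34 to 146 (median 56.8). The yolk list score was 0.79, 1.01 and 0.36 in the low-score libraries, against -0.88 to 0.35 (median -0.24), and starved replicate 4 exceeded fed replicate 1 by little.

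Several genes named by the size of their difference alone belong to none of these lists. abcb11a, a bile salt export pump gene, had 25.6, 20.6 and 31.1 normalized reads in the low-score libraries, against 1.14 to 9.14 (median 5.06) in the other 9 (2.22 ± 0.40). acsl5, which activates long-chain fatty acids, had 32.5, 15 and 22.3, against 1.32 to 12.6 (median 4.44) (2.05 ± 0.40). g0s2, known in mammals as an inhibitor of fat breakdown, had 22.9, 21 and 17.3, against 2.31 to 8.57 (median 4.46) (1.98 ± 0.37). For all 3 genes each low-score library lay above each other library. wnk4b, a kinase gene of ion transport, had 51.5, 50.5 and 32.4, against 1.98 to 16.6 (median 7.71) (2.41 ± 0.35), and rhbg, an ammonia channel gene, 48.5, 41.5 and 38.4, against 4.62 to 19.4 (median 8.14) (1.95 ± 0.34).

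Lysosomal genes were higher, and ctsc had the largest difference among the named higher genes. ctsc, the gene of the lysosomal protease cathepsin C (ENSDARG00000101334, chromosome 15), had 419, 221 and 216 normalized reads in the low-score libraries, against 19.6 to 62.6 (median 36.4) in the other 9 (2.86 ± 0.25). Each low-score value was far above the highest of the others, in starved replicate 6. Of 43 lysosomal genes, 37 had a positive difference, 10 were non-overlapping above and 0 below, with a median of 0.53. psap, which encodes the precursor of lipid-degrading cofactors, had 740.4, 751 and 550.2, against 115 to 367 (median 216) (1.54 ± 0.19). acp5a, an acid phosphatase gene, had 88, 128 and 43.7, against 11.2 to 37.3 (median 26.3) (1.57 ± 0.26). ctss2.1, a cathepsin S gene, overlapped through starved replicate 4, with 94, 131 and 25.8 against 3.3 to 37.3 (median 12.8) (2.08 ± 0.33). ifi30, a lysosomal thiol reductase gene, had 55.4, 37.8 and 38.4, against 2.41 to 26.1 (median 10.9) (1.97 ± 0.43), a difference that turned to -0.21 with the replicate block. List scores were 0.55, 0.85 and 0.21 in the low-score libraries, against -0.50 to 0.20 (median -0.17).

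Endodermal and early liver genes were higher in part. Of 16 members, 11 had a positive and 5 a negative difference. Non-overlapping were 5 above and 0 below, with a median of 0.42. fabp2, a fatty acid-binding protein gene of gut and yolk layer, had 639, 648 and 402 normalized reads in the low-score libraries, against 85.5 to 265 (median 159.7) in the other 9 (1.75 ± 0.22). tfa, the transferrin gene, had 1828, 1516 and 1314, against 351 to 941 (median 547) (1.42 ± 0.21). The transcription factor genes of endoderm stood higher at lower counts. foxa3 had 13.9, 19.1 and 21.1, against 2.64 to 8 (median 6.28) (1.44 ± 0.34), and gata5, which also acts in the heart field, 24.1, 21 and 26.4, against 5.15 to 18.4 (median 7.63) (1.34 ± 0.32). gata6 overlapped through fed replicate 4, with 36.1, 50.9 and 55.3 against 9.95 to 46.3 (median 22.5) (1.01 ± 0.29). The list score was 0.30, 0.32 and 0.50, against -0.29 to 0.18 (median -0.16), and starved replicate 4 was the highest of all 12, unlike in the yolk and lysosome lists.

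Hatching gland genes were higher in all 3 low-score libraries for the proteases themselves. he1.1, a hatching enzyme gene, had 787, 1283 and 478 normalized reads in the low-score libraries, against 193 to 429 (median 264) in the other 9 (1.58 ± 0.23). he1.2, its neighbour in sequence, had 1087, 1506 and 861, against 277 to 823 (median 389) (1.32 ± 0.23), and reads of the near-identical copies may have been split. ctslb, a cathepsin L gene of the gland, had 443, 818 and 317, against 62 to 198 (median 148) (1.75 ± 0.25). In each case fed replicate 5 was the highest and starved replicate 4 the lowest of the 3. Of 12 members, 8 had a positive and 4 a negative difference. Non-overlapping were 5 above and 0 below, with a median of 0.69, which was 1.26 without starved replicate 4.

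Epidermal genes were higher to a smaller extent. Of 49 members, 42 had a positive difference and 6 were non-overlapping above, with a median of 0.33. krt17, a keratin gene, had 191, 257 and 166 normalized reads in the low-score libraries, against 32.4 to 132 (median 48.7) in the other 9 (1.81 ± 0.27), and krt92 had 557, 526.30 and 455, against 78.9 to 357 (median 157) (1.76 ± 0.26). The abundant surface keratins overlapped, with 6294, 7717 and 5461 for krt4 against 3259.7 to 6516 (median 5169) (0.33 ± 0.19), and 439, 553 and 394 for krt5 against 179 to 446 (median 347) (0.47 ± 0.20). Starved replicate 4 again stood nearest the others, with a list score of -0.02, and the median was 0.52 without it. Fin fold genes with the largest differences were low instead, and both overlapped. and1, an actinodin of fin rays, had 7.23, 19.5 and 15.09, against 15.6 to 65.4 (median 40.2) (-1.30 ± 0.34), and and2 1.2, 7.49 and 2.83, against 6.52 to 31.4 (median 14.7) (-1.89 ± 0.43).

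**Figure D4:**
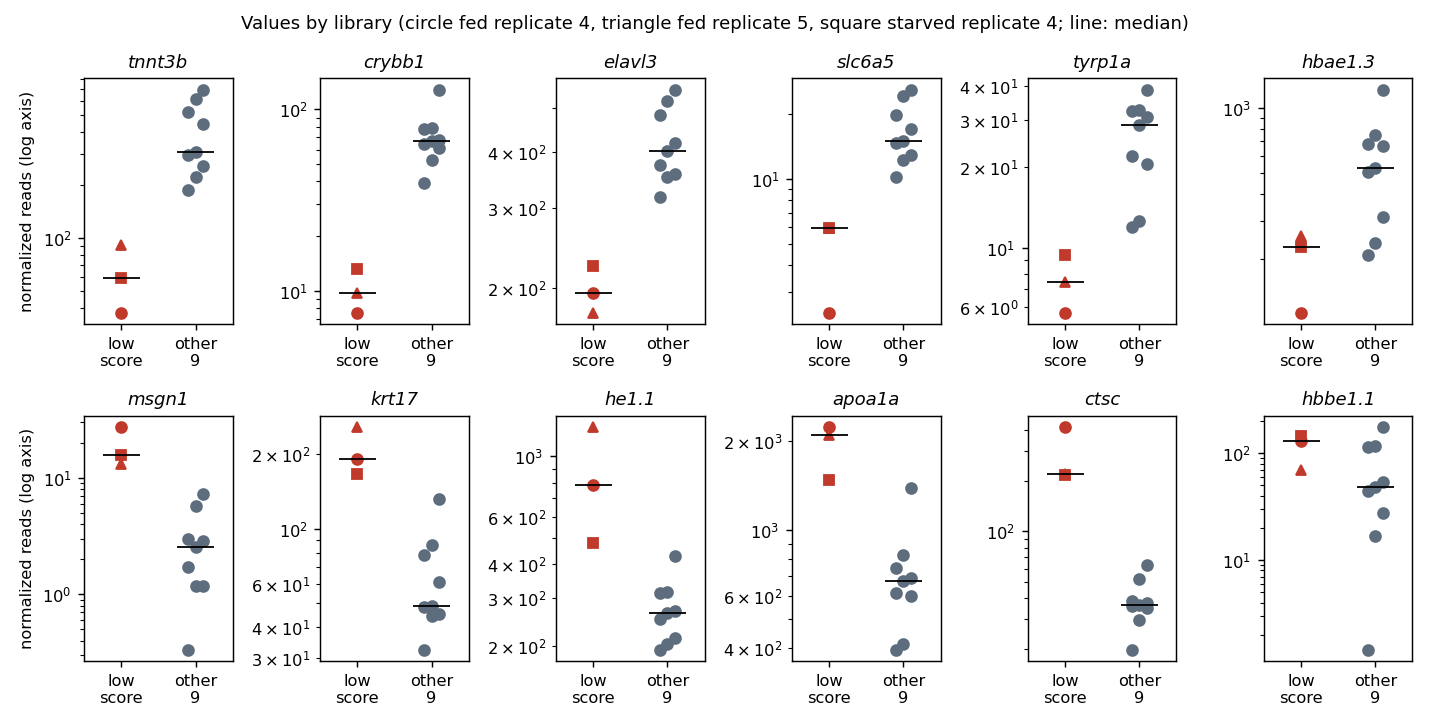
Normalized reads of 12 genes by library on log axes, low-score libraries at the left of each panel (red; circle fed replicate 4, triangle fed replicate 5, square starved replicate 4) and the other 9 at the right (grey), with the median as a line. The upper row holds genes whose low-score values lie lower (for hbae1.3 with overlap), and the lower row genes whose low-score values lie higher (for hbbe1.1 with overlap).

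Globin genes diverged from each other. No member of the 9 was non-overlapping and the median was -0.24, which turned to 0.13 without fed replicate 4 and was 0.39 within code 1242. hbae1.3 (identifier ENSDARG00000089124), an embryonic alpha globin gene, had 113, 256 and 228 normalized reads in the low-score libraries, against 209.6 to 1214 (median 527) in the other 9 (-1.49 ± 0.33). hbbe1.1, an embryonic beta globin gene of the same cluster on chromosome 3, had 130.4, 70.4 and 144, against 1.43 to 176 (median 48.4) (1.76 ± 0.61). The 2 genes therefore stood on opposite sides, both with overlap, and globin copies share sequence, so their reads may have been split. Heart genes had a median of 0.23 (0.12 without fed replicate 4), with 1 of 22 below and 1 above. The cardiac myosin light chain gene myl7 overlapped, with 28, 42.3 and 25.1 against 12.9 to 32.9 (median 29.4) (0.36 ± 0.28).

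Ribosomal protein genes had small positive differences. Of 79 cytosolic ribosomal protein genes, 78 had a positive difference, 5 were non-overlapping above, and the median was 0.32, which was 0.026 with the replicate block. List scores overlapped, since starved replicate 5, at 0.30, exceeded fed replicate 4 at 0.25 and starved replicate 4 at 0.17. rpl39 had 1263, 1496 and 1040.0 normalized reads in the low-score libraries, against 536 to 1251 (median 816) in the other 9 (0.73 ± 0.20), an overlap. Nuclear genes of oxidative phosphorylation had a median of 0.33, with 59 of 70 positive and 1 non-overlapping above. That median was 0.16 without fed replicate 5, the low-score library with the highest score of that list. cox6b1, a subunit of cytochrome c oxidase, had 19.6, 8.24 and 15.7, against 1.76 to 7.48 (median 5.83) (1.33 ± 0.36). Ribosome biogenesis genes had a median of 0.18 (0.33 without fed replicate 5 and 0.091 without starved replicate 4), with 2 of 93 non-overlapping above, and the low-score libraries disagreed, with list scores of 0.18, -0.12 and 0.31. Glycolysis genes had a median of -0.29 (-0.076 without fed replicate 4), with 2 of 28 below and 2 above. Circadian clock genes had 3 of 37 below and 0 above, a median of -0.32, and list scores of -0.29, -0.21 and -0.22 in the low-score libraries, against -0.19 to 0.27 (median 0.075). The clock kinase gene csnk1e had 1.51, 2.99 and 2.83, against 3.5 to 13.6 (median 7.26) (-1.29 ± 0.38).

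Within code 1242, fed replicate 5 could be set against the 3 libraries that share its code. Over all genes, 29.6% lay below and 30.2% above all 3, which is the background for a single library. Of the 41 yolk genes 37 lay above all 3 and 1 below, with a median log2 difference of 1.24. Of the 43 lysosomal genes 36 lay above (0.91), of the 12 hatching gland genes 11 (1.27), of the 49 epidermal genes 38 (0.70) and of the 70 oxidative phosphorylation genes 49 (0.65). Of the 52 neuron genes 37 lay below all 3 (-0.66), and of the 32 synaptic genes 22 (-0.83). The tailbud list was close to background, with 14 of 38 above and a median of 0.11. So was the pigment list, with 9 of 24 below, 6 above and a median of -0.17. Ribosome biogenesis genes turned, with 47 of 93 below and a median of -0.30. Since fed replicate 5 was chosen for its values, this was not tested.

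The order of the other 9 libraries by score was not used to choose the 3, so it allowed a test. Each gene's log2 value was fitted against the score of these 9 libraries, with the father's diet as a covariate, and the slope is the log2 change per unit of score. Libraries that share a description code were treated as independent in this fit. Score and code went partly together: starved replicate 5 and fed replicate 6, the lowest in score, carry code 1242. Fed replicate 3, the highest, and starved replicate 3, also at the high end, carry code 1210. A slope on the score and a difference between codes were therefore not separated in this fit. Outside the 125 score genes, 2 of 13555 genes had a positive slope (0.0148%) and 1 a negative slope (0.00738%) at a Benjamini-Hochberg adjusted p below 0.05 with limma. At an unadjusted p below 0.05 there were 437 positive (3.22%) and 559 negative (4.12%). The adjustment ran over all 13680 genes, score genes included, and 6 of the 100 skeletal muscle genes of the score passed in it. Their small p-values can lower the adjusted p of other genes. An adjustment over the 13555 genes alone was not run, so the 3 calls hold only for the adjustment used. Most score genes are muscle genes, so the rise of another muscle gene with the score is not independent of how the score was built. slc25a4, the mitochondrial ADP and ATP carrier of muscle on chromosome 1, was such a gene and increased with the score. It had 9.95 normalized reads in starved replicate 5 and 13.5 in fed replicate 6, the lowest in score, against 49.9 in starved replicate 2 and 40.5 in fed replicate 3, the highest. Its slope was 2.93 ± 0.52 (SE, n = 9, limma adjusted p = 0.0199). The low-score libraries, chosen for low muscle transcripts and left out of this fit, had 1.51, 7.49 and 6.29, and their difference of -2.07 from the other 9 turned to 0.18 with the replicate block. dnajb1b, a heat shock co-chaperone gene, also increased, with a slope of 3.38 ± 0.65 (limma adjusted p = 0.0493). It had 36.6 normalized reads in starved replicate 2 and 29.4 in starved replicate 3. Fed replicate 3, the highest in score, had 17.4, and the remaining libraries of the 9 had 3.82 to 9.94. The low-score libraries had 11.2, 8.24 and 6.92 and overlapped the rest.

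ddx3xa, an RNA helicase gene of translation, decreased with the score, with a slope of -2.07 ± 0.37 (limma adjusted p = 0.0199). It had 166 normalized reads in fed replicate 6 and 123 in starved replicate 5, against 65.4 in starved replicate 2 and 55.1 in fed replicate 3. The low-score libraries did not continue that order, with 65.1, 85 and 75.1. Among genes that did not pass, the smallest p on the positive side belonged to the fin fold gene and2 (slope 2.93 ± 0.58, limma adjusted p = 0.0605), tcnbb (0.112), pabpc4 (0.162) and col22a1 (0.243), a collagen gene of the muscle-tendon junction. On the negative side they belonged to the ribosome biogenesis gene nop2 (slope -1.48 ± 0.34, limma adjusted p = 0.194), tnks1bp1 (0.243), cenps (0.247), btr23 (0.247) and fam167ab (0.247). The 3 calls depended on single libraries: none remained without fed replicate 3 or without fed replicate 6, and 1 remained in each of the fits without fed replicate 2 and without starved replicate 1. Without starved replicate 2, 4 genes were called and 1 of them was among the 3. Without starved replicate 5, 1 gene was called and it was none of the 3. With the replicate block 37 genes were called, and none of the 3 was among them.

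By list, slopes in the 9 libraries were mostly negative for ribosome biogenesis, although no member passed. Of 93 genes 83 had a negative slope (78 to 85 when each of the 9 was left out), 22 of them at an unadjusted p below 0.05 and 0 positive at that level, with a median of -0.60. Of all 13555 genes outside the score, 6990 had a negative slope. Description codes differed along the score, and their part in the directions of these lists was not tested. The share of the large mitochondrial ribosomal RNA also differed along the score, with 46.7% in starved replicate 5 and 46.4% in fed replicate 6 at the low end, against 27.0% in starved replicate 3, 39.2% in starved replicate 2 and 35.0% in fed replicate 3 at the high end, and its part in these slopes was not tested. nop56 and dkc1, which encode core proteins of small nucleolar RNPs, had slopes of -1.16 ± 0.31 and -1.04 ± 0.29 (limma adjusted p = 0.318 and 0.352). Both were named after their values were seen. Translation factors had 39 of 47 negative (35 to 41), with 5 negative and 2 positive at an unadjusted p below 0.05. Ribosomal proteins had 65 of 79 negative, a count that dropped to 38 without starved replicate 5. Glycolysis genes leaned the other way, with 23 of 28 positive (19 to 25), 5 of them at an unadjusted p below 0.05 and 1 negative at that level. pgam2 and eno3, the muscle forms of phosphoglycerate mutase and enolase, were among the 5 positive, with slopes of 1.61 ± 0.38 and 1.01 ± 0.31 (limma adjusted p = 0.227 and 0.413, also named after their values were seen). As for slc25a4, their rise is not independent of a score made mostly of muscle genes. Neuron genes had 34 of 52 positive slopes, 7 at an unadjusted p below 0.05 and 0 negative at that level. Yolk genes had 29 of 41 negative (22 without starved replicate 2), with 7 negative and 2 positive at that level. Hatching gland genes, with 5 positive and 7 negative, and tailbud genes, with 16 and 22, showed no common direction, and none of their members passed.

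**Figure D5:**
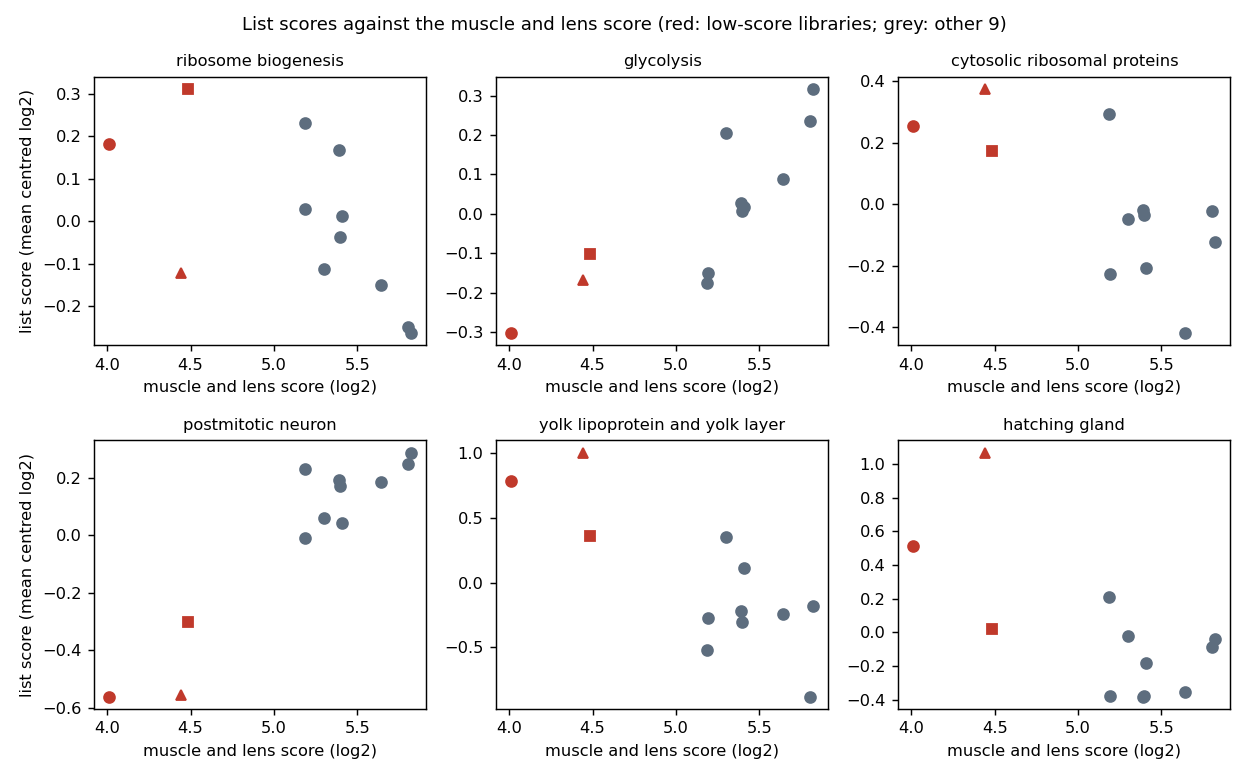
List scores (mean centred log2 of the members, vertical axes) of 6 gene lists against the muscle and lens score (horizontal axes), 1 point per library, red for the low-score libraries (circle fed replicate 4, triangle fed replicate 5, square starved replicate 4) and grey for the other 9. Among the other 9, ribosome biogenesis scores tend to be lower and glycolysis scores higher toward the right, while in the low-score libraries ribosome biogenesis is spread from -0.12 to 0.31.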

How the data were processed

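Per the labels' protocols, RNA of 24-hour zebrafish embryos was made into 12 libraries with a 3' tag kit (QuantSeq, forward version) and read on a NextSeq instrument. The submitters' processing notes name STAR, edgeR and the build GRCz11 (danRer11). Among the sources used here, not given are the tool versions, the settings, the way reads were counted and any use of strand. A table of 13680 genes was deposited by the authors, with an expression signal for each library, found from the values to be read counts divided by a size factor, their own log2 fold change (starved against fed fathers) and their FDR, an adjusted p-value. The fold change and FDR were not used. Only genes that passed a filter of the authors are listed. Whole reads were recovered from the deposited signal. With the highest values of each library left out, 100% of values came within 0.03 of a whole read (largest deviation 0.0214). Over all values, the largest deviation was 0.00897 normalized reads, in starved replicate 2, where 1 read was worth 0.330. Library columns of other series numbered 0. No 2 libraries of a group were duplicates (30 pairs, chi-square per degree of freedom 6.33 to 40.6 over genes with 10 or more reads per pair).

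Groups were taken from titles, and table columns from descriptions. The 3 libraries and the 50 gene lists (48 outside the score) were chosen with earlier results of these data known. The 3 against 9 contrast was fitted with limma 3.58.1 in R 4.3.3 on log2(value + 1), with the father's diet as covariate, for description only; this scale makes changes of weakly expressed genes look smaller. Slopes on the score were tested in the 9 other libraries with limma (variance trend, two-sided, Benjamini-Hochberg over all 13680 genes, threshold 0.05). The 125 score genes were left out of the counts but not out of the adjustment. Both procedures were tested on simulated counts, with libraries drawn independently and no effect shared within a description code. The 3 simulated libraries were not chosen by their values. False calls of the non-overlap rule below are therefore no rate for 3 libraries chosen as here. The non-overlap rule recovered 46% of 2-fold and 95% of 4-fold changes, with 119 false calls among 13480 unchanged genes. The slope fit recovered 13% of 2-fold and 70% of 4-fold changes over the score range of the 9, with 4 false calls. Changed genes were drawn only from genes outside the score with a mean of at least 5 normalized reads. Among such genes most 2-fold changes would therefore be missed by both, and recovery for weaker genes was not simulated. The SE after each ± comes from the limma fits and rests on the spread between libraries, not on counting error alone. The 3 against 9 fit, like the slope fit, treated libraries that share a description code as independent. Fed replicate 4 and starved replicate 4, both of code 1219, were among them. No counting interval is printed for values of single libraries.

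Named genes were the 12 non-overlapping genes with the largest difference on each side among those with a mean of at least 5 normalized reads, up to 4 such members of each list with the largest difference, markers of each tissue, and the genes with the smallest slope p (6 a side where fewer than 5 passed); clone-style names were left out, 1 gene is not reported here, and a gene named outside this rule is either given in a sentence that says so or, where it stands beside such a member of its list, was chosen after its values were seen. The table's own gene names were used (13388 of its identifiers also occur in the reference name list), and 105 names repeat the name of another row. The same replicate numbers in both groups were not taken as pairs, since no label calls them pairs and not every correlation of their deviations exceeded 0.1. All 6 correlations were positive (0.099 to 0.445), and 5 of 6 exceeded 0.1. Of the 12 libraries, 10 correlated best with their own number. Fits without a block therefore treat as independent libraries that may not be. Alternative settings comprised a minimum mean of 5, pseudocounts of 0.5 and 5, other scalings, edgeR 4.0.16 and DESeq2 1.42.0 on recovered reads, no covariate, blocks, scores of muscle or lens alone, and each library left out in turn. Each list was described by counts and medians, with no set test.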

Additional observations from a re-analysis of the deposited data

Results flagged for a closer look

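Of 168 list scores and gene values examined over the 9 other libraries, 5 had a library farther from the rest than Dixon's criterion allows at the 95% level (gap over range above 0.493 for 9 libraries), where chance flags about 1 in 20. The 5 are fewer than that rate would give. The keratin gene krt5 had 179 normalized reads in starved replicate 2, below the other 8. The beta globin gene hbbe2 had 11.7 in fed replicate 6. The cytochrome c oxidase gene cox6b1 had 1.76 in fed replicate 6, barely past the criterion. The ribosome biogenesis genes rcl1 and nip7 had 1.45 in starved replicate 3 and 2.64 in starved replicate 2. Among 23 list scores, none had the fed low-score libraries on one side of the fed libraries and starved replicate 4 on the opposite side of the starved ones.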

How the results depend on the processing

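The direction of the 12 main list medians (muscle, lens crystallin, lens structure, neuron, synapse, tailbud, yolk, lysosome, hatching gland, epidermis, ribosomal proteins, oxidative phosphorylation) held in every alternative run except where named here. With pseudocounts of 0.5 and 5, the lens crystallin median was -2.31 and -0.94 and the lens structure median -1.56 and -0.54; with 5, neuron was -0.50 and synapse -0.69. Among genes with a mean of at least 5, lens crystallin was -2.34 and lens structure turned to 0.22. With edgeR's fold changes these were -2.81 and -1.78. Scaled without mitochondrial ribosomal RNA, the median of all genes was -0.069. Of 25 lens crystallin genes 14, and of 8 other lens genes 3, had a mean of at least 5 normalized reads.

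The labels do not say whether the replicate number pairs the samples, but fed and starved libraries of the same number carry the same description code. Of the 12 libraries, 10 correlated best with the library of the other group that has their own number, as a hint from the data. Because both libraries numbered 4 are low-score libraries, the replicate block leaves only replicate 5 to carry the contrast. Under that replicate block the medians were muscle -0.59, lens crystallin -0.72, lens structure -0.38, synapse -0.66, tailbud -0.0093 (turned), yolk 1.38, lysosome 0.91 and ribosomal proteins 0.026. Single genes turned as well: xirp2b 0.56, col22a1 0.24, slc25a4 0.18, ifi30 -0.21 and her9 -0.097. With the description code as a block, muscle was -0.68, lens crystallin -1.03, lens structure -0.67, tailbud 0.061, lysosome 0.84, hatching gland 1.29, epidermis 0.59 and oxidative phosphorylation 0.64. Within code 1242, non-overlapping genes numbered 4053 below and 4138 above (fewer libraries), and medians were lens crystallin -1.18, lens structure -0.64, lysosome 0.91, hatching gland 1.27, epidermis 0.70 and oxidative phosphorylation 0.65. With the 2 libraries of code 1219 alone against the 9, 753 genes lay below and 742 above, and synapse was -0.77. With fed replicate 5 alone against the 9, 2055 lay below and 2395 above, lens structure was -0.88, lysosome 0.88, hatching gland 1.44, epidermis 0.63 and all genes 0.026. The cause of these shifts was not tested, apart from counts that grow with fewer libraries.

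Leaving out each library, non-overlapping genes ranged from 442 to 882 below and from 436 to 978 above, the highest without starved replicate 4. Medians ranged from -1.06 to -0.85 for muscle, -2.02 to -1.72 for lens crystallin, -1.41 to -1.07 for lens structure, -0.74 to -0.53 for neuron, -0.97 to -0.77 for synapse, 0.089 to 0.34 for tailbud (lowest without fed replicate 4), 0.86 to 1.00 for yolk, 0.48 to 0.66 for lysosome, 0.57 to 1.26 for hatching gland and 0.23 to 0.52 for epidermis (both highest without starved replicate 4), 0.28 to 0.39 for ribosomal proteins, 0.16 to 0.47 for oxidative phosphorylation (lowest without fed replicate 5), and -0.0050 to 0.0071 for all genes.

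Slope calls numbered 0 to 4 when each of the 9 libraries was left out (0 without fed replicate 3 or 6), 1 with muscle alone as the score, 12 with DESeq2 (3 shared, 5835 adjusted p-values left empty) and 37 with the replicate block (0 shared); edgeR called 4, and other settings 2 to 4. With lens alone as the score, 4 genes were called and 1 of them was among the 3 reported. dnajb1b passed in 5 of the 18 alternatives.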

Other observations

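Other lists outside the account above had few members apart. Of 28 erythroid and heme genes 1 was non-overlapping below and 2 above, with a median of 0.031. The erythroid spectrin gene sptb had 31.9, 25.8 and 45 normalized reads in the low-score libraries, against 45.3 to 85.8 (median 68.5) in the other 9 (-0.88 ± 0.21), and alas2, which starts heme synthesis in red cells, 5.42, 13.5 and 12.9, against 6.27 to 33.7 (median 20.1), with overlap. Of 26 p53 pathway genes 2 lay above and 0 below, with a median of 0.28. The stress gene sesn3 had 144, 67.4 and 95.9 in the low-score libraries, against 16.1 to 48.8 (median 32) (1.61 ± 0.28), and each of the 3 lay above all 9. Of 36 notochord genes 1 lay above and 0 below, and the collagen gene col2a1a had 200.01, 382 and 254, against 244 to 446 (median 318) (-0.22 ± 0.19). epyc, a proteoglycan gene of that list, had 30.4, 51.3 and 32.4, against 50.1 to 140.3 (median 92.7) (-1.29 ± 0.24), an overlap through fed replicate 5. Of 62 mitosis genes 4 lay below and 0 above, among them the condensin gene ncaph with 12.3, 12.7 and 11.9, against 15.9 to 32.9 (median 22.9) (-0.82 ± 0.25). Of 61 DNA replication genes 1 lay below and 0 above, and orc6, a subunit of the origin recognition complex, had 30.4, 19.5 and 35.5, against 7.43 to 26.3 (median 14.5) (0.96 ± 0.30). Of 25 fin fold and basement membrane genes 2 lay below and 0 above, and of 31 heat shock genes 1 and 0.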
